A study of Rattus norvegicus with 4 samples.

Results

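Chemokines and growth cytokines are secreted or membrane-bound signals through which heart cells call in leukocytes and act on their neighbours. The 10 genes described here are the CC chemokines Ccl2 and Ccl7, the CXC chemokines Cxcl1 and Cxcl12, the membrane-anchored chemokines Cxcl16 and Cx3cl1, the cytokines Il6, Il11 and Lif, and the colony stimulating factor Csf1. They were taken by symbol from the 15731 genes with deposited values, each was listed there once, and the rule used no measured value. The RNA came from ventricular cardiomyocyte cultures of neonatal wild-type Wistar rats. The labels give the age as postnatal day 1, whereas the isolation protocol gives day 0. Each culture had received 1 miRNA mimic, hsa-miR-106b-5p (here miR-106b), hsa-miR-93-5p (miR-93), hsa-miR-25-3p (miR-25) or, as control, cel-miR-67 of the worm C. elegans, and RNA was taken 72 h later. The dose is 25 nM in one protocol of the labels and 25 mM in another. All 4 cultures, the control included, went through the same transfection reagent and 5% serum, and none was left untransfected. The cells had been preplated to reduce non-myocytes. Each mimic has 1 library, so no difference between mimics has a replicate check, and no p-value is given.

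Chemokines bind G protein-coupled receptors and set up gradients that leukocytes follow. Ccl2 and Ccl7 draw monocytes, Cxcl1 draws neutrophils, and Cxcl12 holds and attracts cells that carry Cxcr4. Cxcl16 and Cx3cl1 are made as transmembrane proteins, from which the sheddases Adam10 and Adam17 release a soluble chemokine. Il6, Il11 and Lif signal through the shared receptor chain gp130, encoded by Il6st, and through Jak kinases and Stat3, whereas Csf1 acts on Csf1r and keeps macrophages alive. In the heart these signals are known from injured or stretched tissue, where fibroblasts, endothelial cells, macrophages and cardiomyocytes can all make some of them.

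The mature miRNAs are shown because miR-106b and miR-93 share a seed that miR-25 lacks, so that the comparison of miR-93 with miR-106b is one between mimics of the same seed. The sequences are those of the rat miRNAs in RefSeq (GRCr8), written 5′ to 3′, with the seed (bases 2 to 8) in capitals.
rno-miR-106b-5p: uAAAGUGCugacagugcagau
rno-miR-93-5p: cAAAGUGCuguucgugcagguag
rno-miR-25-3p: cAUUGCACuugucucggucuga
All 3 lie on the minus strand of chromosome 12 of GRCr8, at 22157103 to 22157123, 22156894 to 22156916 and 22156652 to 22156673. miR-106b and miR-93 had the same base at 16 of their first 21 positions. The seed of miR-106b and miR-93 is carried by 5 rat mature miRNAs in the table, and that of miR-25 by 5 others.

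Levels are RPKM, read numbers scaled to gene length and library size, and so can be set side by side between genes. Where 4 values follow one another without names, they are those of the libraries of miR-106b, miR-93, miR-25 and cel-miR-67, in that order, and 3 such values are those of the 3 cluster miRNAs. The reads behind the levels were recovered from the deposited values, and 15175185 to 18797234 reads a library fell on listed genes. That is 60.4% to 66.9% of the library sizes behind the deposited values. These sizes came out as numbers that are not whole, so they cannot be taken as read totals, nor the percentages as shares of reads. A fold change is the plain ratio of RPKM values, formed for genes above RPKM 1.0 in both libraries and called past 1.3-fold, which is 0.38 on the log2 scale. The ranges given with it are 95% exact (Clopper-Pearson) intervals from the reads, and those given with a level are 95% exact Poisson intervals. Both cover counting error only and leave out any difference between cultures.

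In the control culture Ccl2 was the most highly expressed of the 10 genes and Il11 the least. Ccl2, Csf1 and Cxcl16 stood at the 83.5th, 72.2nd and 64.1st percentile of all listed genes. Ccl7 and Cxcl1 followed at the 39.2nd and 37.4th, and Cxcl12, Cx3cl1 and Lif at the 32.8th, 28.9th and 25.7th. Il6 stood at the 9.87th percentile and Il11 below it. Ccl2, Ccl7, Cxcl1, Cxcl16 and Csf1 were above RPKM 1.0 in all 4 libraries. Cxcl12 and Cx3cl1 were above it in 3 libraries, Lif in 1 and Il6 and Il11 in none. The summed level of the 10 genes was 42.2 RPKM with miR-106b, 35.0 with miR-93, 47.5 in the miR-25 library and 49.9 in the control, and Ccl2 alone made up 38.2% to 43.1% of it. The lowest of the 4 levels was in the miR-93 library for 5 genes, in the miR-25 library for 3, in the miR-106b library for 2 and in the control for 0. The highest level was in the miR-25 library for 4 genes and in each of the other libraries for 2. The same counts over all listed genes were not made, and some ranks rest on differences within counting error. Il6 was lowest with miR-93 on 2 reads beside 3 in the control, and Cxcl1 with miR-25 at 2.22 RPKM beside 2.33. Because whole cultures were sequenced, fewer cells of a type that makes a cytokine and less of its RNA per cell cannot be told apart.

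**Figure D1:**
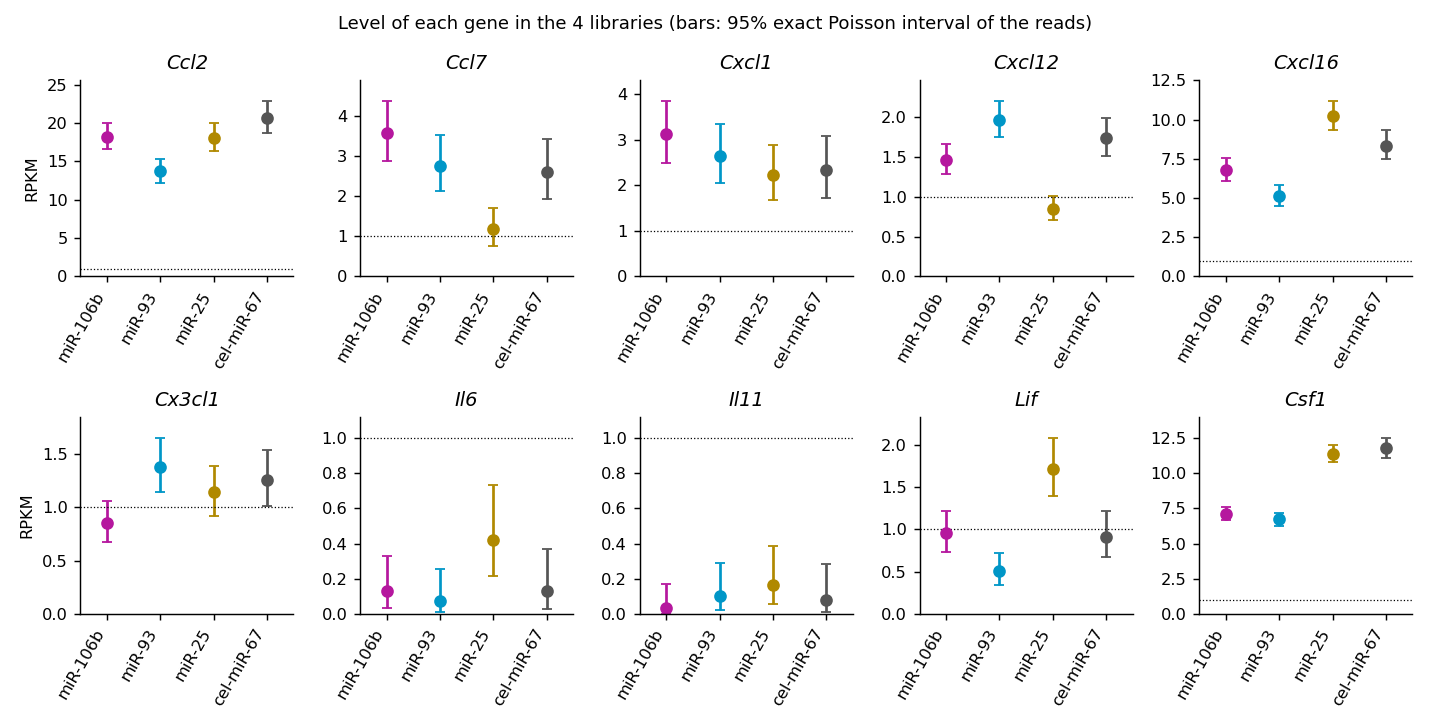
Level of each of the 10 genes (RPKM, linear axis from 0, scaled for each gene) in the 4 libraries. Points are the deposited values, bars are 95% exact Poisson intervals of the recovered reads, and the dotted line marks RPKM 1.0. Lif is above the line with miR-25 only, at 1.71, Cxcl12 is below it with miR-25 only, at 0.846, and Il6 and Il11 are below it in all 4 libraries.

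Against cel-miR-67, 6 of the 10 genes could be compared for miR-106b, and 2 were higher (Ccl7 and Cxcl1) and 1 lower (Csf1). Among all 11296 genes compared, 11.9% were higher and 12.7% lower. With miR-93, 7 genes could be compared, 0 were higher and 3 lower (Ccl2, Cxcl16 and Csf1), beside 15.1% higher and 15.6% lower among 11280 genes. With miR-25, 6 could be compared, 0 were higher and 1 lower (Ccl7), beside 19.3% higher and 22.6% lower among 11198 genes. The median log2 fold change of the compared cytokine genes was -0.22 for miR-106b, 0.09 for miR-93 and -0.11 for miR-25, beside 0.00, 0.00 and -0.01 over all genes compared. The 3 comparisons share the 1 control library, so their differences do not count as separate observations of it. When libraries were scaled to reads on listed genes instead, every log2 fold change moved up by 0.08 for miR-106b and by 0.15 for both miR-93 and miR-25. The medians over all genes compared thereby left 0 and stood at 0.08, 0.14 and 0.14. Of all genes compared, 16.7%, 25.1% and 29.3% were then higher and 9.08%, 9.65% and 15.9% lower. The share of higher genes among all called genes then went from 48.2% to 64.7% for miR-106b, from 49.2% to 72.3% for miR-93 and from 46.1% to 64.8% for miR-25. The calls of the cytokine genes were the same under that scaling for miR-106b and miR-93, and for miR-25 Cxcl16 joined as 1 higher gene beside the 1 lower.

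**Figure D2:**
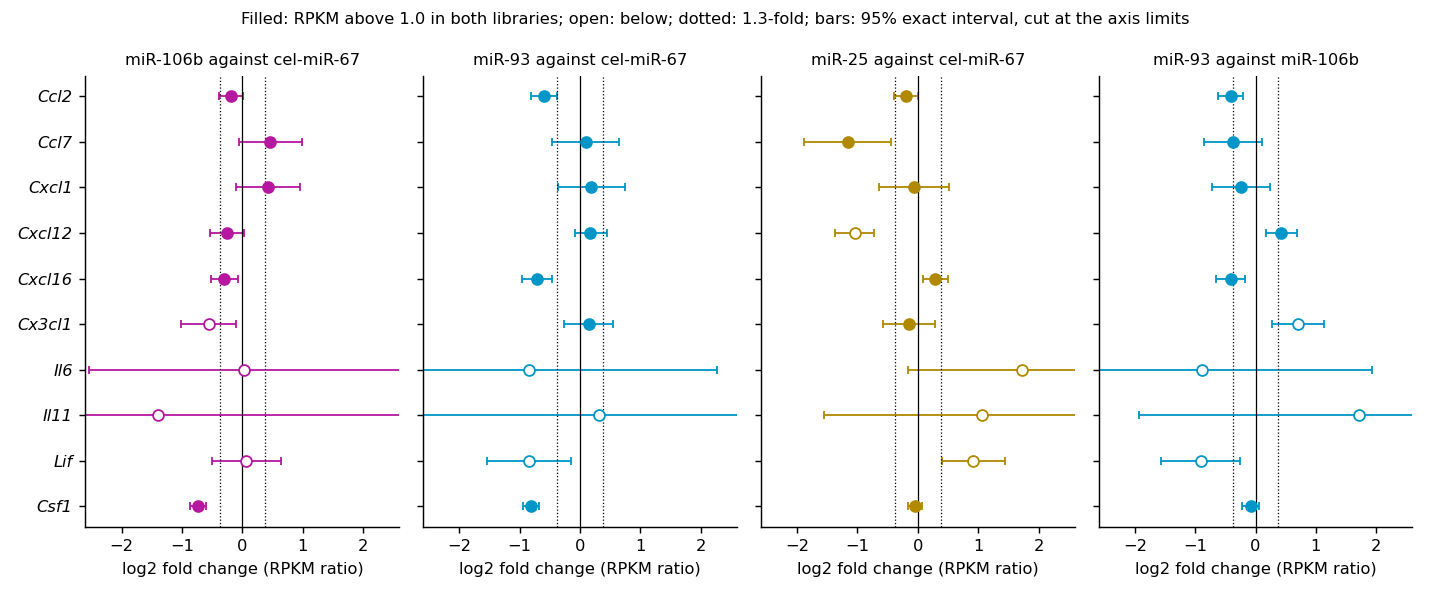
Log2 fold change of RPKM for each of the 10 genes in 4 comparisons (horizontal axis), with 95% exact intervals as bars, cut at the axis limits. Filled points are above RPKM 1.0 in both libraries, open points are not, and dotted lines mark 1.3-fold. Csf1 lies at -0.73 and -0.81 for miR-106b and miR-93 and at -0.05 for miR-25, and the bars of Il6 and Il11 run past most of the axis.

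Csf1 had the narrowest intervals of the 10 genes, with 799 to 1352 reads a library. Its level was 7.10 RPKM with miR-106b, 6.72 with miR-93, 11.4 in the miR-25 library and 11.8 in the control. The 2 libraries of the shared seed were low and the other 2 high, and the intervals of the levels did not overlap between these pairs. Csf1 fell 1.66-fold with miR-106b, a log2 fold change of -0.73 (-0.86 to -0.60), and 3.28% of the genes compared were lower still. With miR-93 it fell 1.75-fold, a log2 fold change of -0.81 (-0.94 to -0.68), with 4.29% of genes lower. For miR-25 the log2 fold change was -0.05 (-0.16 to 0.07), inside the cutoff. Set against each other, miR-93 and miR-106b differed in Csf1 by -0.08 (-0.22 to 0.06) on the log2 scale. miR-25 stood 0.68 (0.56 to 0.80) above miR-106b and 0.76 (0.63 to 0.89) above miR-93, 2 comparisons that do not use the control library.

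Csf1r, the receptor of Csf1 on macrophages, was at 2.62 RPKM with miR-106b, 2.92 with miR-93, 1.53 in the miR-25 library and 2.76 in the control. It was thus low in the one mimic library where Csf1 was high, and fell with miR-25 by 0.85 (interval -1.12 to -0.58) on the log2 scale. Il34, the other ligand of Csf1r, was listed at 0 with miR-106b and miR-93 and had 5 reads with miR-25 and 4 with the control. Of the list of 11 colony stimulating factors and receptors without Csf1, 7 were found and 3 compared for each mimic. Kitlg, the ligand of Kit, fell with all 3 mimics, with log2 fold changes of -0.62, -0.70 and -0.41. Kit rose with miR-93, at 0.88, and fell with miR-25, at -0.52. The genes higher in this list numbered 0, 1 and 0 and those lower 1, 1 and 3, with medians of -0.08, 0.08 and -0.52. Of all genes compared, 11.9%, 15.1% and 19.3% were higher and 12.7%, 15.6% and 22.6% lower. A list of 3 compared genes is too small to set against these shares. Scaled to reads on listed genes, only Csf1r stayed lower with miR-25, and the falls of Kitlg and Kit ended.

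Among the CC chemokines, Ccl2 was at 18.2 RPKM with miR-106b, 13.7 with miR-93, 18.1 in the miR-25 library and 20.7 in the control, on 313 to 452 reads. The miR-93 library was lowest, and its interval of 12.2 to 15.3 RPKM lay below those of the other 3, which overlapped one another. Ccl2 fell with miR-93 by 0.59 (interval -0.81 to -0.38) on the log2 scale. For miR-106b and miR-25 the log2 fold changes were -0.19 (-0.38 to 0.01) and -0.19 (-0.39 to 0.01), inside the cutoff, and the difference between these mimics was 0.00 (-0.20 to 0.19).

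Ccl7, the neighbour of Ccl2 in function as a monocyte attractant, had a different order. It was at 3.56 RPKM with miR-106b (90 reads), 2.76 with miR-93 (64), 1.17 in the miR-25 library (27) and 2.59 in the control (50). The miR-25 library stood apart from the rest: its interval of 0.768 to 1.70 RPKM lay below those of the others, which overlapped. Ccl7 fell 2.23-fold with miR-25, a log2 fold change of -1.15 (-1.89 to -0.45), and 3.46% of the genes compared were lower. It passed 1.3-fold upwards with miR-106b at 0.46, but that interval (-0.06 to 0.99) includes 0, so the rise was not detectable at this depth. For miR-93 the value was 0.09 (-0.47 to 0.65). miR-25 stood 1.61 (interval of the log2 difference -2.29 to -0.98) below miR-106b and 1.24 (-1.95 to -0.57) below miR-93. The level with miR-25 was just inside the RPKM cutoff of 1.0.

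Cxcl1, the rat neutrophil attractant, varied least of the 10, between 2.22 RPKM with miR-25 and 3.12 with miR-106b, on 49 to 86 reads. All 4 intervals of its level overlapped. Its log2 fold change with miR-106b was 0.42 (-0.10 to 0.96), past 1.3-fold but not separable from 0 at this depth, and those for miR-93 and miR-25 were 0.18 (-0.37 to 0.74) and -0.07 (-0.65 to 0.51).

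Cxcl12, the ligand of Cxcr4 and of the scavenging receptor Ackr3, was at 1.46 RPKM with miR-106b (235 reads), 1.96 with miR-93 (291), 0.846 in the miR-25 library (125) and 1.74 in the control (214). The miR-25 library was again apart, with an interval of 0.704 to 1.01 RPKM below those of the other 3. Because that level is under RPKM 1.0, the difference from the control was not called, although the log2 ratio was -1.04 (-1.37 to -0.72). The log2 difference of miR-25 was -0.78 (-1.11 to -0.47) from miR-106b and -1.22 (-1.53 to -0.91) from miR-93. For miR-106b and miR-93 against the control the values were -0.26 (-0.53 to 0.02) and 0.17 (-0.08 to 0.44). Between them, miR-93 was higher by 0.43 (0.18 to 0.69), past the cutoff.

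The receptors of these chemokines were weakly expressed. Ackr3 was at 2.62, 2.63, 4.13 and 3.14 RPKM with miR-106b, miR-93, miR-25 and cel-miR-67, and Cxcr4 was between 0.605 and 0.980. The log2 ratio of Cxcr4 to the control for miR-106b, not called, was -0.58 (-1.13 to -0.04). Ackr3 rose with miR-25 by 0.39 (0.08 to 0.71) on the log2 scale. Ackr4, which removes chemokines that bind Ccr7, rose with miR-25 by 1.35 (0.87 to 1.86), from 1.03 to 2.62 RPKM. Cxcr6, the receptor of Cxcl16, and Cx3cr1, that of Cx3cl1, were below RPKM 1.0 in all libraries, at 0.286 to 0.668 and 0.166 to 0.415. Ccr2 and Cxcr2 were not analysed here. Of 23 receptors listed, 11 were found, of which 1, 2 and 3 were compared for the 3 mimics. Higher ones numbered 0, 0 and 2 and lower ones 0, with medians of -0.26, -0.09 and 0.39. The shares over all genes compared were 11.9%, 15.1% and 19.3% higher and 12.7%, 15.6% and 22.6% lower.

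Of 28 other chemokines listed, 12 were found, and 5, 4 and 3 were compared for the 3 mimics. Higher ones numbered 3, 0 and 0 and lower ones 0, 1 and 1, with medians of 0.40, 0.04 and -0.29. Over all genes compared, 11.9%, 15.1% and 19.3% were higher and 12.7%, 15.6% and 22.6% lower. Scaled to reads on listed genes, the higher ones numbered 3, 1 and 1 and the lower ones 0, 1 and 1. Cxcl10, an interferon-induced attractant of T cells, rose with miR-106b, from 1.17 to 1.99 RPKM, by 0.77 (0.13 to 1.44) on the log2 scale. Pf4, a platelet chemokine that macrophages also make, was at 7.72, 9.09, 2.31 and 8.32 RPKM with miR-106b, miR-93, miR-25 and the control, and fell with miR-25 by 1.85 (interval -2.66 to -1.10). Ccl27, a skin chemokine, fell with miR-93 from 2.91 to 1.89 RPKM, by 0.62 (interval -1.23 to -0.02), on 43 reads beside 55 in the control. At an RPKM cutoff of 2.0 it was not compared. Ccl12 and Ccl20, the other 2 genes past 1.3-fold with miR-106b, are named only after their values were seen. Ccl12 had a log2 fold change of 0.43 (-0.48 to 1.38) there. Ccl20, a mucosal chemokine, was at 7.05, 6.84, 0.653 and 5.32 RPKM in the same order, with a log2 fold change of 0.40 (0.03 to 0.78) for miR-106b, and was under RPKM 1.0 with miR-25.

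Cxcl16 and Cx3cl1 did not share an order. Cxcl16 was at 6.78 RPKM with miR-106b, 5.11 with miR-93, 10.2 in the miR-25 library and 8.35 in the control, on 238 to 476 reads. The miR-93 library was the lowest and the miR-25 library the highest, 2.00-fold above it, and the log2 difference between them was 1.00 (0.78 to 1.23). Cxcl16 fell 1.63-fold with miR-93, a log2 fold change of -0.71 (-0.96 to -0.46). With miR-106b the value was -0.30 (-0.52 to -0.08) and with miR-25 0.29 (0.09 to 0.50), both inside the cutoff although the intervals leave out 0. With libraries scaled to reads on listed genes, the miR-25 value was 0.44, past 1.3-fold. Between the mimics of the same seed, miR-93 was lower than miR-106b by 0.41 (interval of the log2 difference -0.65 to -0.17).

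Cx3cl1 lay near RPKM 1.0 throughout, at 0.849 with miR-106b (79 reads), 1.38 with miR-93 (118), 1.14 in the miR-25 library (97) and 1.26 in the control (89). The miR-106b library was the only one under the cutoff. Its log2 ratio to the control, not called, was -0.56 (-1.02 to -0.11). For miR-93 and miR-25 the values were 0.14 (-0.27 to 0.55) and -0.14 (-0.57 to 0.29), inside the cutoff.

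Adam10, the sheddase that releases both chemokines in resting cells, was at 24.3, 30.2, 7.99 and 32.1 RPKM with miR-106b, miR-93, miR-25 and cel-miR-67. It fell 4.02-fold with miR-25, a log2 fold change of -2.01 (-2.12 to -1.89), and fell with miR-106b by 0.40 (interval -0.48 to -0.33). Adam17, the sheddase of stimulated cells, stayed between 11.7 and 12.8 RPKM and within the cutoff for all 3 mimics. All 5 genes of the shedding list were found and 3 compared for each mimic, with 0, 0 and 0 higher and 1, 0 and 1 lower, and medians of -0.31, -0.09 and 0.12. Of all genes compared, 11.9%, 15.1% and 19.3% were higher and 12.7%, 15.6% and 22.6% lower. Scaled to reads on listed genes, the fall of Adam10 with miR-106b ended, and 1 gene of the list was higher and 1 lower with miR-25.

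The gp130 cytokines Il6, Il11 and Lif had 68, 36, 121 and 51 reads between them, and Il6 and Il11 were the lowest of the 10 genes in every library. Lif, leukemia inhibitory factor, a hypertrophic cytokine for cardiomyocytes, was at 0.951 RPKM with miR-106b (63 reads), 0.510 with miR-93 (31), 1.71 in the miR-25 library (104) and 0.911 in the control (46). The miR-25 library was the highest, with an interval of 1.40 to 2.08 RPKM above those of the other 3. Since Lif passed RPKM 1.0 in that library alone, none of its differences was called. Its log2 ratio to the control was 0.91 (0.40 to 1.45) for miR-25, which is 1.88-fold, -0.84 (-1.54 to -0.15) for miR-93 and 0.06 (-0.51 to 0.64) for miR-106b. miR-25 was 3.36-fold above miR-93, a log2 difference of 1.75 (1.16 to 2.38), and miR-93 differed from miR-106b by -0.90 (-1.57 to -0.26).

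Il6, the cytokine of the acute phase, had 4 reads with miR-106b, 2 with miR-93, 12 in the miR-25 library and 3 in the control, or 0.129, 0.0701, 0.421 and 0.127 RPKM. The miR-25 library held most of the reads, but the interval of its log2 ratio to the control, -0.16 to 4.20 around 1.73, includes 0. Against miR-93 the log2 difference was 2.59 (0.42 to 5.79). Il11, a fibroblast cytokine, had 1, 3, 5 and 2 reads in the same order, or 0.0302, 0.0987, 0.165 and 0.0792 RPKM, and every interval of its ratios includes 0. For genes with so few reads the recovered numbers are the smallest ones that give the deposited ratios.

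The receptor chains of these cytokines ranged from high to low levels. Il6st, the gp130 chain itself, was at 36.8 RPKM with miR-106b, 42.7 with miR-93, 55.7 in the miR-25 library and 54.0 in the control. It fell with miR-106b by 0.55 (interval -0.62 to -0.49) on the log2 scale, and its values for miR-93 and miR-25 were -0.34 (-0.40 to -0.27) and 0.05 (-0.02 to 0.11), inside the cutoff. Lifr, the partner chain for Lif, was at 5.22, 9.60, 2.27 and 5.56 RPKM. It rose with miR-93 by 0.79 (0.66 to 0.92) and fell with miR-25 by 1.29 (interval -1.48 to -1.10). Across the 4 libraries, Lif was highest where Lifr was lowest, and lowest where Lifr was highest. Il6st, the other chain for Lif, was instead highest where Lif was highest, at 55.7 RPKM beside 54.0 in the control. None of the Lif differences was called. Osmr, the chain for oncostatin M, rose with miR-25 by 0.73 (0.56 to 0.90) and fell with miR-106b and miR-93, with log2 fold changes of -0.45 and -0.57. Il11ra1, the Il11 receptor, stayed between 24.8 and 28.4 RPKM. Il6r was between 0.883 and 1.36 RPKM, and its log2 ratio to the control for miR-93, not called, was 0.63 (0.25 to 1.01). Cntf, a further cytokine of the family, fell with all 3 mimics, by 0.56, 0.83 and 1.11. Of 13 genes in this list 11 were found and 5 compared for each mimic, with 0, 1 and 1 higher and 3, 2 and 2 lower, and medians of -0.45, -0.34 and 0.05. The shares over all genes compared were 11.9%, 15.1% and 19.3% higher and 12.7%, 15.6% and 22.6% lower. The fall of Osmr with miR-106b ended when libraries were scaled to reads on listed genes.

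Downstream of gp130, Jak1 was at 30.9 RPKM with miR-106b, 32.7 with miR-93, 63.7 in the miR-25 library and 53.6 in the control. It fell with both mimics of the shared seed, with log2 fold changes of -0.79 (-0.85 to -0.73) and -0.71 (-0.77 to -0.65), and was at 0.25 (0.20 to 0.30) with miR-25, inside the cutoff. Stat3, the main transcription factor of the pathway, stayed within the cutoff for all 3 mimics, at 44.3 RPKM in the control. Socs3, the feedback inhibitor of gp130 signalling, was at 4.71, 8.10, 5.19 and 7.05 RPKM and fell with miR-106b (-0.58, interval -0.95 to -0.22) and with miR-25 (-0.44, interval -0.81 to -0.08). Pias3, an inhibitor of Stat3, rose with all 3 mimics, by 0.72, 0.77 and 1.15. Of 14 listed JAK-STAT and SOCS genes, 14 were found and 12 compared for each mimic. Higher ones numbered 1, 2 and 1 and lower ones 3, 2 and 1, with medians of -0.15, 0.20 and 0.17. Over all genes compared, 11.9%, 15.1% and 19.3% were higher and 12.7%, 15.6% and 22.6% lower. Scaled to reads on listed genes, the higher ones numbered 1, 5 and 5 and the lower ones 3, 2 and 0. The fall of Socs3 with miR-25 ended. Among all genes compared, 16.7%, 25.1% and 29.3% were higher under that scaling and 9.08%, 9.65% and 15.9% lower.

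NF-kB and C/EBP factors switch on many of these cytokine genes in stimulated cells. Of the 16 listed genes of this kind, 16 were found. For miR-25, 12 were compared, and 8 were higher and 0 lower, with a median log2 fold change of 0.49. Among all genes compared, 19.3% were higher with miR-25 and 22.6% lower. Nfkb2, which encodes a factor of the alternative NF-kB route, rose with miR-25 from 3.66 to 7.18 RPKM, by 0.97 (0.76 to 1.19). Nfkbie, an inhibitor of NF-kB, rose with miR-25 by 0.93 (0.56 to 1.32) and with miR-93 by 0.48 (0.08 to 0.89). Nfkbiz, a nuclear cofactor needed for the Il6 gene, was at 4.72, 2.80, 7.92 and 5.98 RPKM, rose with miR-25 by 0.41 (0.26 to 0.56) and fell with miR-93 by 1.09 (interval -1.29 to -0.90). Rela, the main activating subunit, fell with miR-93 (-0.51, interval -0.71 to -0.32), and Nfkbia rose with it (0.45, interval 0.24 to 0.65), whereas Nfkb1 stayed between 9.66 and 12.1 RPKM, within the cutoff. With miR-25 Rela and Nfkbia were inside the cutoff, at -0.16 (-0.34 to 0.02) and -0.19 (-0.41 to 0.04). With miR-106b 12 genes were compared, 0 higher and 1 lower (median -0.05), and with miR-93 11, with 3 higher and 2 lower (median 0.02). Among all genes compared, 11.9% and 15.1% were higher with these 2 mimics and 12.7% and 15.6% lower. Scaled to reads on listed genes, miR-25 had again 8 higher and 0 lower, beside 29.3% of all genes higher and 15.9% lower under that scaling, miR-106b had 0 and 0, and miR-93 had 3 and 1, the fall of Rela having ended.

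**Figure D3:**
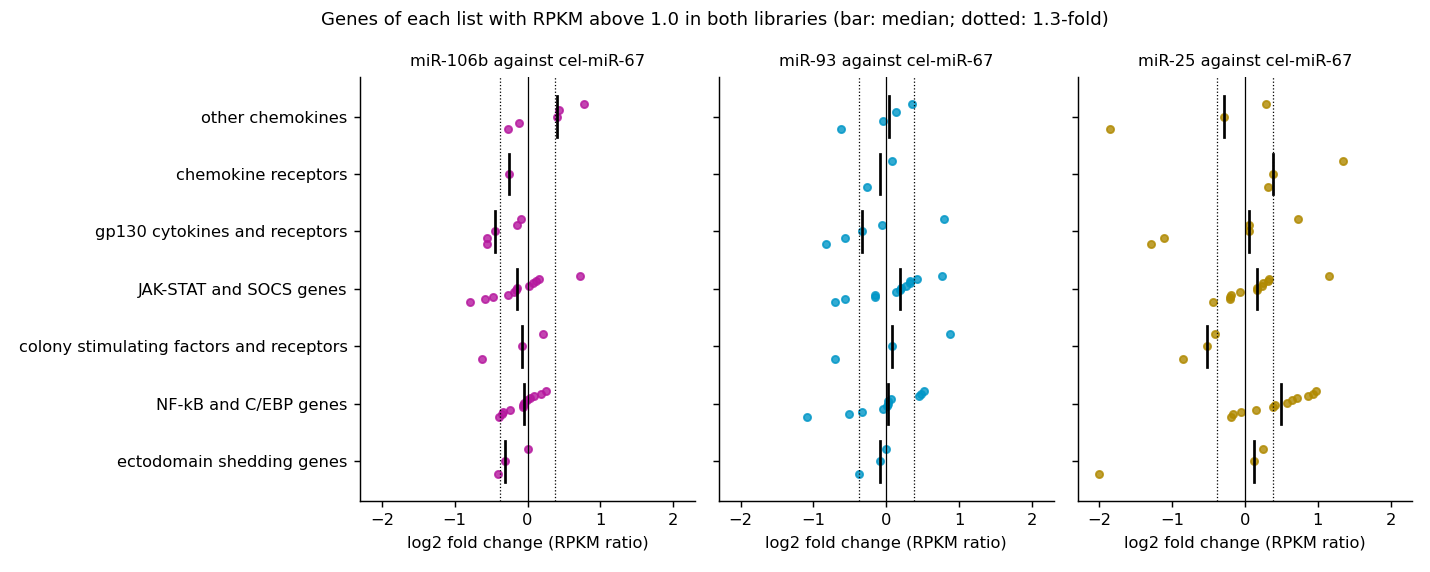
Log2 fold change of RPKM against cel-miR-67 (horizontal axis) for each gene of 7 lists that was above RPKM 1.0 in both libraries, 1 panel for each mimic. Each point is a gene, the vertical bar is the median of the list, and dotted lines mark 1.3-fold. In the miR-25 panel the NF-kB and C/EBP genes have a median of 0.49 and Adam10 lies at -2.01.

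Promoters were searched for motifs of NF-kB, AP-1 and STAT factors, and no C/EBP motif was searched. RefSeq promoter windows of 300 bases (GRCr8, from 250 bases before to 50 after the gene start) were found for Ccl7, Cxcl1, Cxcl12, Cxcl16, Cx3cl1, Il6 and Il11, 7 of the 10 genes, and searched on both strands. The kappaB consensus bound by NF-kB was in 3 of the 7 and in 7.60% of all 27457 promoters, the AP-1 motif TGANTCA in 2 and in 7.33%, and the STAT motif TTCNNNGAA in 1 and in 8.68%. The 60 bases around a match are shown for the 4 genes that had one, with the match in capitals, since they differ in level from Ccl7 and Cxcl1, above RPKM 1.0 in all libraries, to Il6 and Il11, below it in all.
Ccl7, chr10:67513995-67514054, plus strand: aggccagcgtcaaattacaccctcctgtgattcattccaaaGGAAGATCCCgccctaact
Cxcl1, chr14:17479362-17479421, minus strand: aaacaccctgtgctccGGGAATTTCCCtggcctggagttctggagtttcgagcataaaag
Il6, chr4:5894616-5894675, minus strand: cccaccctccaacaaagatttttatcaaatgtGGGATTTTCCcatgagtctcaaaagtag
Il11, chr1:78098462-78098521, plus strand: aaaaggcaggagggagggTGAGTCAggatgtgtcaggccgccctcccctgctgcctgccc
The capitals mark a kappaB match in Ccl7, Cxcl1 and Il6, where Cxcl1 holds 2 overlapping ones, and an AP-1 match in Il11. The matches start 59 bases before the gene start in Ccl7, 84 and 83 in Cxcl1, 68 in Il6 and 142 in Il11. Ccl7 also has an AP-1 match 73 bases before its start and a STAT match that begins at base 32, counting the start as base 1. Of the 3 genes with a kappaB match, the level with miR-25 was the highest of the 4 libraries for Il6 and the lowest for Ccl7 and Cxcl1. For Il6 and Cxcl1 the interval of the log2 ratio of miR-25 to the control includes 0 (-0.16 to 4.20 and -0.65 to 0.51). A link between the matches and the levels was not tested.

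miR-93 and miR-106b, which share a seed, were also set against each other without the control. Of 6 cytokine genes compared, 1 was higher with miR-93 (Cxcl12) and 2 were lower (Ccl2 and Cxcl16, each with a log2 difference of -0.41), with a median of -0.30. Among all 11391 genes compared, 7.30% were higher and 8.21% lower. The intervals of those 3 genes leave out 0, as do those of Cx3cl1 (0.70, interval 0.28 to 1.13) and Lif, which were not called. How often this held over all genes was not computed. When libraries were scaled to reads on listed genes, the calls of Ccl2 and Cxcl16 ended and only Cxcl12 stayed past the cutoff, and the share of higher genes among all called genes went from 47.1% to 62.8%.

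Markers of the cell types in such cultures differed between the libraries as well. The 9 cardiomyocyte markers found summed to 18953 RPKM with miR-106b, 14464 with miR-93, 12364 in the miR-25 library and 21041 in the control, so the labelled cell type was present throughout. With miR-25 all 9 fell past 1.3-fold, their sum being 0.588 of the control. Among all genes compared, 19.3% were higher with miR-25 and 22.6% lower. Marker counts were not made with libraries scaled to reads on listed genes, which moves miR-25 log2 fold changes up by 0.15. The 9 fibroblast markers summed to 648, 751, 334 and 835 RPKM, and with miR-25 1 was higher and 7 lower. The 7 smooth muscle and pericyte markers summed to 710, 605, 2079 and 772 RPKM, with 6 higher and 1 lower for miR-25. The 11 macrophage and leukocyte markers, Csf1r among them, summed to 25.9, 27.4, 18.9 and 26.8 RPKM. Of the 6 of these compared for miR-25, 0 were higher and 3 lower. The 7 endothelial markers found summed to 5.75 to 8.56 RPKM. No marker found was at 0 in any library. Ttn and Pecam1 were not analysed here. Beside the lower Csf1 of miR-106b and miR-93, 0 of the 9 fibroblast markers were higher and 5 lower with each of these mimics, with medians of -0.39 and -0.48 and sums of 0.777 and 0.899 of the control. The macrophage and leukocyte sums were 0.963 and 1.02 of the control there, with 2 of 8 markers higher and 1 lower for each mimic. Among all genes compared, 11.9% and 15.1% were higher with miR-106b and miR-93 and 12.7% and 15.6% lower. The endothelial sums were 0.758 and 0.794 and the smooth muscle and pericyte sums 0.920 and 0.783 of the control, and the part of these markers in the Csf1 values was not tested either. The values of Ccl7, Cxcl12, Csf1r and Pf4, low with miR-25, and of Cxcl16, Lif and Ackr3, high with it, thus stood beside different levels of fibroblast, macrophage and smooth muscle markers, whose part in these values was not tested.

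**Figure D4:**
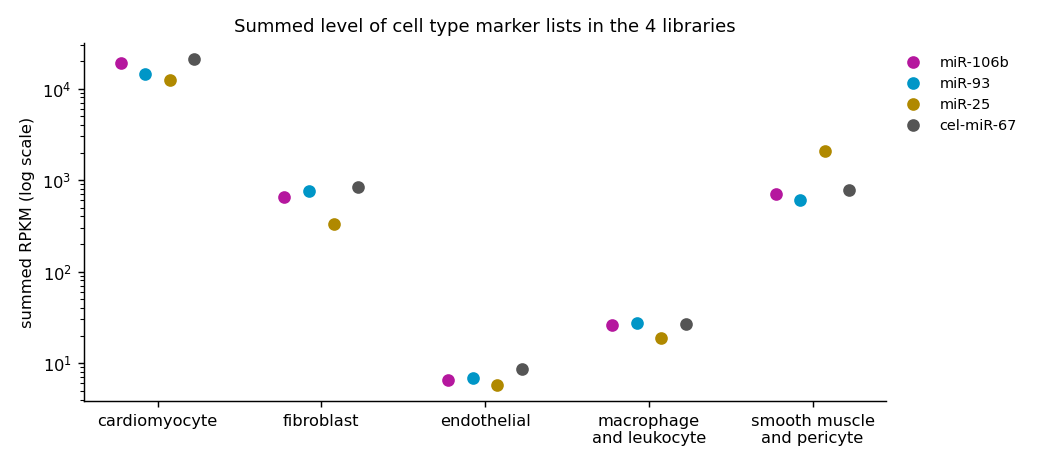
Summed RPKM (log axis) of the markers found for 5 cell types in each of the 4 libraries, 1 point for each library. The miR-25 library is the lowest for cardiomyocyte (12364), fibroblast (334), endothelial (5.75) and macrophage and leukocyte markers (18.9), and the highest for smooth muscle and pericyte markers (2079).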

How the data were processed

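The authors trimmed adaptors, aligned single-end reads to Rnor_6.0 with STAR 2.7 and deposited RPKM values made with the rpkm function of edgeR, the deposited values being scaled by gene length and library size. The read counter is not given in the sources used here. Groups were read from the sample labels. Whole reads were recovered from the RPKM steps for all 15731 genes, within a tolerance of 0.0001 reads, and served for intervals only. The recovery was tested on simulated data. With 1 library per mimic no count test was run. The cytokine genes, the gene lists, the markers and the cutoffs were chosen with earlier results of these data known. Beside the 10 genes, the genes named are the receptors and listed regulators set for each list, plus the 3 of each list with the largest log2 fold change past 1.3-fold in any comparison with cel-miR-67. Ccl12 and Ccl20 fall outside this rule and were named after their values were seen. Alternatives were other RPKM and fold-change cutoffs, no filter, a pseudocount of 1, median centring, and scaling to reads on listed genes. miRNA and promoter sequences came from RefSeq tables of GRCr8, and no coordinates were carried between builds. Predicted miRNA sites were not analysed here. Scripts ran under Python 3.11.15 with pandas 2.3.3, scipy 1.17.1 (intervals), numpy 2.4.6 and, for plots, matplotlib 3.10.9.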

Additional observations from a re-analysis of the deposited data

How the results depend on the processing

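No paired analysis was possible because each mimic has 1 library, and for the same reason no library could be left out. The cytokine genes past 1.3-fold against cel-miR-67 numbered 3 for miR-106b, 3 for miR-93 and 1 for miR-25, and 3 for miR-93 against miR-106b. Without a filter on low values, which admits Il6, Il11 and Lif and in some comparisons Cx3cl1 or Cxcl12, they numbered 5, 5, 5 and 7. Past 1.5-fold they numbered 1 for miR-106b and 0 for miR-93 against miR-106b, and past 2-fold 0 for miR-106b, 0 for miR-93 and 0 for miR-93 against miR-106b. A pseudocount of 1 RPKM left 1 for miR-106b and 1 for miR-93 against miR-106b. For miR-25 the number was 0 above RPKM 2.0, 3 with RPKM above 1.0 in either library and 2 with libraries scaled to reads on listed genes, and that scaling left 1 for miR-93 against miR-106b. The other 17 counts of these genes were within 1.5 times the reported ones, no called gene changed direction, and 117 of 120 single log2 values stayed inside their reported interval. The exceptions were Csf1 scaled to reads on listed genes, at -0.66 with miR-93 and 0.10 with miR-25, and Cxcl12 with a pseudocount, at -0.57 with miR-25. Of 42 counts over the gene lists, 15 moved by more than 1.5 times. Apart from the scaling to reads on listed genes, shares over all genes compared were not computed for the changed settings. Depth limits Il6 and Il11, with at most 12 reads in a library.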
